A study of Mus musculus with 112 samples.

Results

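The cerebral cortex of Balbc/J mice, an albino inbred strain, was compared between 8 mice on a calorie restricted (CR) diet and 8 on a control diet. They were chosen by the strain and diet in their labels, and gave 16 of the 112 arrays of a study that treated 7 strains alike in design, with 8 mice per diet and strain. All mice were males from the Jackson Laboratory that came at 6 weeks of age, were kept 1 to a cage and had 84 kcal of a purified AIN93M-type diet each week up to 8 weeks of age. The control and CR diets then ran until 22 weeks, and tissue was taken after an overnight fast. By the study's methods, food portions were set strain by strain. Portions for Balbc/J were larger on both diets than those of B6C3F1/J, CBA/J, C3H/HeJ and DBA/2J, and its CR portion matched the control portion of these strains, so strain and amount of food cannot be told apart. The study reported no significant loss of body weight under CR in Balbc/J, unlike in every other strain. The other 6 strains, namely the hybrid B6C3F1/J and the inbred CBA/J, DBA/2J, C57BL6/J, C3H/HeJ and 129S1/SvImJ, were likewise fed control and CR diets and serve here only as a point of reference. Their restriction was not uniform, since the CR portion of 129S1/SvImJ and C57BL6/J was cut a second time partway through. Each mouse gave 1 Affymetrix Mouse Gene ST array, and values are log2 RMA signal, a background-corrected and normalized brightness in which 1 unit is a doubling.

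Calorie restriction lowers energy intake without malnutrition. In the brain, fasting and restricted feeding are known to act on the circadian clock, on glucocorticoid signalling, on chaperones that keep proteins folded and on the machinery that degrades them. The clock is a loop in which activators such as BMAL1 (Arntl) switch on period, cryptochrome and REV-ERB genes, whose products then repress the activators. Heat shock genes encode chaperones of the cytosol and are switched on by the factor HSF1, which binds repeated GAA units in their promoters.

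The labels were checked first. Zhx2, a transcription factor gene whose transcript is low in Balbc/J through a retroviral insertion, had a mean log2 signal of 7.37 over the 16 Balbc/J arrays (7.14 to 7.56). Means in the other strains lay between 8.24 and 8.59, with no overlap between Balbc/J and any other strain. Nnt, which carries a deletion in C57BL6/J, had means of 8.42 in that strain, 9.07 in Balbc/J and 8.41 to 8.55 in the others, so this probe set did not single out C57BL6/J. Markers of cortical excitatory neurons were present on all Balbc/J arrays, at a mean of 9.34 to 9.97 in control and 9.51 to 9.89 in CR mice. Array quality, as the spread of relative log expression, was 0.174 to 0.29 in control and 0.169 to 0.301 in CR arrays. The number of arrays limits the precision, with a median standard error (SE) of a diet difference of 0.0681 log2 units.

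A group of 3 Balbc/J control arrays stood apart in Scarna13, a small RNA of Cajal bodies that guides the modification of splicing RNAs. Control replicates 2, 3 and 4 had log2 signals of 10.16, 10.01 and 10.17, the other 5 control arrays 8.32 to 8.84, and the 8 CR arrays 8.13 to 8.43. Levels above 9.5 were found on 12 of the 112 arrays, among them 9 of the 96 arrays of other strains and both diets. The same 3 control arrays were also at the edge of the control range for several genes below. Many results that rest on them are therefore given with and without them, an alternative chosen after the data were seen. Values given only with all arrays can also change without these 3. Whether the 3 arrays differ for a technical or a biological reason was not tested.

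The first comparison asked which cortical genes differ between CR and control mice of this strain. None of the 19938 genes passed limma at an adjusted p under 0.05 (0 called, 0% of genes, lowest adjusted p = 0.125). At an unadjusted p under 0.05 there were 1326 genes, 710 with higher signal in CR mice (3.56% of all genes) and 616 with lower signal (3.09%). At an unadjusted p under 0.01, the threshold of the study's methods, there were 346 (1.74%), 207 higher and 139 lower. Without the 3 control arrays high in Scarna13 the latter count was 155, and 3.92% of all genes had an unadjusted p under 0.05. The groups failed to overlap for 8 genes (0.0401%), which were 1500009C09Rik, Gatad2b, 0610040B10Rik, Prkci, Fgfrl1, Ptov1, Zfp804b and Mpp3. For 81.9% of genes the 95% confidence interval of the difference lay within a change of 20%.

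The genes named next had the smallest unadjusted p among those of above-median signal, and none of them passed the test over all genes. Those of higher signal in CR mice come first. Jkamp, which encodes a membrane protein of the endoplasmic reticulum that links it to the proteasome, ranged over 8.91 to 9.36 in control mice (median 9.11) and over 9.24 to 9.54 in CR mice (median 9.38). The difference was 0.24 ± 0.0553 log2 units (SE, adjusted p = 0.164), and 8 of 8 CR arrays lay above the control median. Psma5, a subunit of the alpha ring of the proteasome, lay at 8.35 to 8.65 in control (median 8.48) and 8.53 to 8.92 in CR mice (median 8.66), a difference of 0.21 ± 0.0508 (adjusted p = 0.164). The groups overlapped for both genes, though all 8 CR arrays were above the control median. A second probe set of Psma5 showed only 0.043, so the probe sets of this gene disagree in size.

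Atp6v0b, a subunit of the proton pump that acidifies lysosomes and vesicles, had a control range of 10.81 to 11.07 (median 10.97) and a CR range of 11.03 to 11.21 (median 11.11), a difference of 0.17 ± 0.0402. Ndufb6, an accessory subunit of respiratory complex I, ranged from 10.57 to 11.25 in control mice (median 11.11) and from 11.18 to 11.42 in CR mice (median 11.26), a difference of 0.28 ± 0.0659 (adjusted p = 0.164). Both rested in part on control replicates 2, 3 and 4, which lay at 10.81 to 10.86 for Atp6v0b and 10.57 to 10.94 for Ndufb6, below the 10.97 to 11.07 and 11.06 to 11.25 of the other control arrays. Without them the differences were 0.11 and 0.12, of which only the first had an unadjusted p under 0.05. The other 8 genes on the higher side had differences of 0.17 to 0.23. They were Tmbim4, Rtca, an RNA cyclase gene, Alg3, a mannosyltransferase gene of glycoprotein synthesis, the intramembrane protease gene Sppl2a, Unc50, Cacfd1, Tmem203 and the translation initiation factor gene Eif1ax. Each of the 8 had all CR arrays above its control median. A second probe set of Cacfd1 gave 0.017 in place of 0.22, and without the 3 arrays Tmem203 differed by 0.12 and Eif1ax by 0.16.

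On the lower side, 1500009C09Rik, a gene of unknown function, had the smallest p of all genes. Its signal was 10.21 to 10.50 in control mice (median 10.37) and 9.89 to 10.19 in CR mice (median 10.13), so the groups did not overlap. The difference was -0.25 ± 0.0517 log2 units (adjusted p = 0.125), and -0.20 without the 3 control arrays high in Scarna13. C2cd2l, which encodes a lipid transfer protein at contacts between the endoplasmic reticulum and the plasma membrane, lay at 9.47 to 10.01 in control (median 9.78) and 9.003 to 9.73 in CR mice (median 9.27), and 6 of 8 CR arrays were below every control array. Its difference of -0.43 ± 0.107 (adjusted p = 0.164) was -0.44 without the 3 arrays. The beta tubulin gene Tubb4a, abundant in oligodendrocytes, had control levels of 11.67 to 12.11 (median 11.87) and CR levels of 11.45 to 11.74 (median 11.69), a difference of -0.23 ± 0.0569, and of -0.15 without the 3 arrays.

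Gatad2b, a subunit gene of the NuRD chromatin remodelling complex, did not overlap between groups, with 11.20 to 11.46 in control and 11.09 to 11.18 in CR mice. The control arrays high in Scarna13 were its 3 highest, at 11.31 to 11.46, and its difference of -0.15 became -0.09 without them. Cox7b, a subunit of respiratory complex IV, differed by -0.17, and S100a1, a calcium-binding protein gene, by -0.18, with 7 of 8 CR arrays below every control array in both. Epb41l1, 2210016L21Rik and Trappc2l differed by -0.14 to -0.23, and 2210016L21Rik by -0.14 without the 3 arrays. The small nucleolar RNA Snord82 differed by -0.47 ± 0.124, with levels of 9.95 to 10.48 in control mice (median 10.14) and 9.17 to 10.06 in CR mice (median 9.74). Scarna13 itself differed by -0.87 ± 0.234 and by -0.29 without its 3 high control arrays. With these arrays left out, all 24 genes named on the 2 sides kept their sign, 11 of 12 on each side kept an unadjusted p under 0.05, and 12 of 12 higher and 8 of 12 lower genes had a smaller difference. The genes had been chosen by their p with all arrays, most of which were used again here. That they kept sign and a low p therefore follows largely from their choice.

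**Figure D1:**
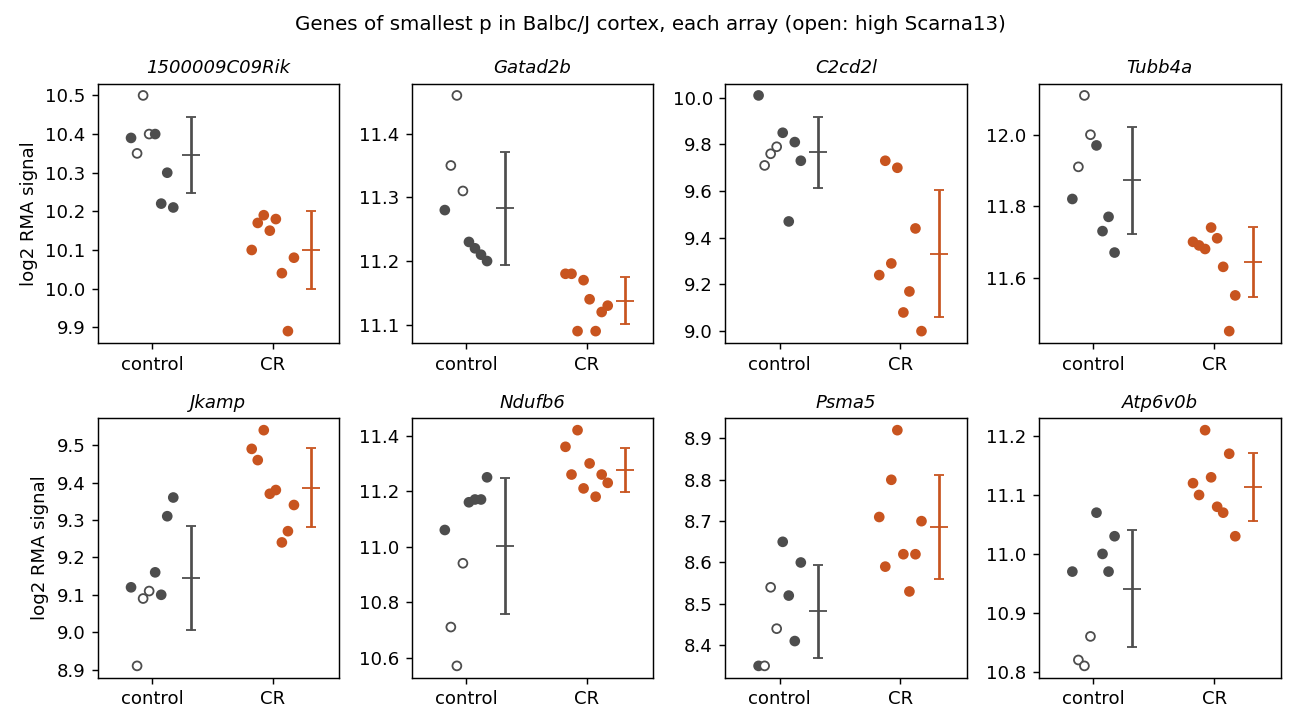
Log2 RMA signal (y axis) of 8 of the genes with the smallest p in Balbc/J cortex, 1 point per array, for control and CR mice (x axis). Bars show the mean ± SD (n = 8) and open points are the 3 control arrays high in Scarna13. The groups are apart for 1500009C09Rik (10.21 to 10.50 against 9.89 to 10.19) and Gatad2b, while for Ndufb6 and Atp6v0b the open points lie lowest among controls.

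The last member of the lower side was Hspa1a, which encodes the stress-inducible HSP70 chaperone, and it was joined by other genes of the cytosolic heat shock response. Of 20 genes listed, 17 were measured, and 15 of them had a negative difference, as did 10597 of all 19938 genes. At an unadjusted p under 0.05, 3 of the 17 were lower and 0 were higher, against 3.09% and 3.56% of all genes, and the median difference was -0.078 log2 units (-0.089 to -0.043 when 1 array was left out, the latter without CR replicate 1) against -0.005 over all genes. In the other 6 strains the same genes had a median of 0.013. Without the 3 control arrays high in Scarna13, 15 of 17 were again negative and the median was -0.107, against -0.005 over all genes. At an unadjusted p under 0.05, 5 were then lower and 0 higher. Of all 19938 genes, 362 were lower and 419 higher in that fit (3.92% in either direction).

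The promoters of Hspa1a and Hspb1, the small chaperone HSP27, are shown because these 2 genes had the lowest p of the list and both hold the letters of a heat shock element. The 250 bases before the RefSeq transcription start (GRCm38.p6) lie at chr17:34972157-34972406 on the minus strand for Hspa1a and at chr5:135887669-135887918 on the plus strand for Hspb1. Capitals mark each match to GAANNTTC, an inverted pair of the units that HSF1 binds.
Hspa1a: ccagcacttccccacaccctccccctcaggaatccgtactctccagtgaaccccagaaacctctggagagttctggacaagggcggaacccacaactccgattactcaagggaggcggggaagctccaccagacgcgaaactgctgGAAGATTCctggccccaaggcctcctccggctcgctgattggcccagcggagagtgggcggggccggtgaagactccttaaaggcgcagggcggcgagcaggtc
Hspb1: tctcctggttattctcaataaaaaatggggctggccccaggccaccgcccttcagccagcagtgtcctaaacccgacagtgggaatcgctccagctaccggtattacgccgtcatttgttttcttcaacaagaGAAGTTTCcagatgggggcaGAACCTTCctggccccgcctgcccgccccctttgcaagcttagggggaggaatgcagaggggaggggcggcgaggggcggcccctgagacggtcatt
The match in Hspa1a begins 104 bases before the start, and those in Hspb1 begin 117 and 97 bases before it. The motif reads the same on both strands, and the opposite arrangement of its units was not searched. In RefSeq windows of 300 bases, which run past the start, it was present in 7.86% of 32851 mouse promoters. Of the 13 measured heat shock genes with such a window 7 held it, namely Bag3, Chordc1, Dnaja1, Hspa1a, Hspb1, Hspb8 and Hsph1. This count is by gene, with a match in any of a gene's windows (18 in all), whereas the 7.86% is a share of single promoters. Dnajb1 had no match in its windows. The list was made of heat shock genes, so its share with a match follows in part from that choice. The share bears on no CR difference. A match is a run of letters and no evidence of binding.

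Hspa1a had log2 signals of 8.38, 9.17, 8.03, 9.88, 8.75, 9.85, 8.95 and 9.51 in control replicates 1 to 8. In CR replicates 1 to 8 they were 8.01, 8.41, 8.21, 8.38, 8.74, 9.28, 9.42 and 8.29. The groups overlapped widely, with 6 of 8 CR arrays under the control median of 9.06 and control replicates 4, 6 and 8 above every CR array. The difference was -0.47 ± 0.128 log2 units (SE, adjusted p = 0.188). Its probe set may also read the near-identical Hspa1b, which was not analysed here.

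Hspb1 was 7.56 to 8.69 in control mice (median 8.10) and 7.22 to 8.37 in CR mice (median 7.76), a difference of -0.40 ± 0.0935 (adjusted p = 0.164). Dnajb1, which encodes an HSP40 partner of HSP70, was 8.78 to 9.73 in control (median 9.49) and 8.73 to 9.55 in CR mice (median 9.01), a difference of -0.32 ± 0.101 (adjusted p = 0.384). For both, 7 of 8 CR arrays lay below the control median and the groups overlapped. Levels of the 3 genes went up and down together between mice of 1 diet: control replicates 4, 6 and 8 and CR replicates 6 and 7 were the highest of their groups for Hspa1a, Hspb1 and Dnajb1 alike. Hspb8, another small chaperone, differed by -0.15 (adjusted p = 0.751), and the abundant HSP90 gene Hsp90aa1 by -0.08 (adjusted p = 0.751). Hspa8, the constitutive HSC70, and Hsph1, of the HSP110 family, were both at -0.01. Their sign turned in some alternatives, and without the 3 control arrays high in Scarna13 they were at -0.06 and -0.09.

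The calls of these genes depended on single arrays and on weighting. Without control replicate 3, low in all 3 genes, limma called Hspb1 (-0.48, adjusted p = 0.0119) and Hspa1a (-0.62, adjusted p = 0.0119) lower. Hspb1 was also called without CR replicate 7 (adjusted p = 0.0141), and with array weights and all arrays Hspb1, Hspa1a and Dnajb1 were called (adjusted p of 0.00322, 0.00322 and 0.00289). Without all 3 control arrays high in Scarna13, Hspb1 was the only gene called (-0.50, adjusted p = 0.0439), and Hspa1a differed by -0.50 and Dnajb1 by -0.33. In the other 6 strains together Hspb1, Hspa1a and Dnajb1 differed by 0.00, 0.01 and 0.02, a mean of strains on both sides of 0. In CBA/J the differences were -0.099, -0.154 and -0.178, and in C57BL6/J they were 0.165, 0.214 and 0.117. C3H/HeJ was at -0.131 for Hspa1a and DBA/2J at -0.12 for Hspb1. The test of Balbc/J against those strains gave -0.40 for Hspb1 (adjusted p = 0.419), -0.48 for Hspa1a (adjusted p = 0.524) and -0.33 for Dnajb1 (adjusted p = 0.712), and so did not pass over all genes with all arrays weighted alike. With array weights the 3 differences from the other strains were called (adjusted p = 0.014 for Hspb1 and 0.0201 for Hspa1a and Dnajb1), as were those of Hspb1 and Hspa1a without control replicate 3 (adjusted p = 0.0413).

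**Figure D2:**
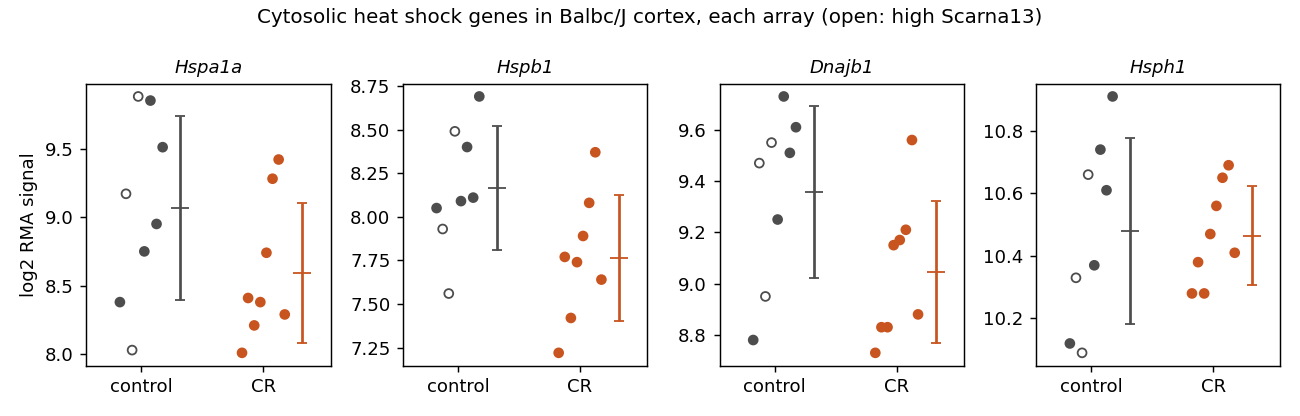
Log2 RMA signal (y axis) of 4 cytosolic heat shock genes in Balbc/J cortex, 1 point per array, for control and CR mice (x axis), with the mean ± SD (n = 8) and open points for the control arrays high in Scarna13. Means are lower in CR mice for Hspa1a, Hspb1 and Dnajb1, the ranges overlap, and Hsph1 differs by -0.01 with all arrays and by -0.09 without the open points.

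The next comparison asked whether the CR difference in Balbc/J departs from that in the other 6 strains. Limma called 0 genes (0%, lowest adjusted p = 0.182), with 941 at an unadjusted p under 0.05 (4.72%). The 8 genes of smallest p were Tmem203, Psma5, Ddx3x, Per2, F8a, Hspb1, Unc50 and 6230400D17Rik, with adjusted p of 0.182 to 0.419. Psma5 differed by 0.21 in Balbc/J and by -0.09 to -0.003 in each other strain (difference 0.24 ± 0.0549, adjusted p = 0.182). Tmem203, a calcium regulator of the endoplasmic reticulum, differed by 0.19 in Balbc/J and by -0.14 to 0.08 in the others (difference 0.25 ± 0.0539, adjusted p = 0.182). Ddx3x, an RNA helicase gene of the X chromosome, differed by 0.16 in Balbc/J against -0.07 over the other strains. For F8a and Unc50 the CR minus control difference of Balbc/J exceeded that of the other strains by 0.25 and 0.20, and for 6230400D17Rik the Balbc/J difference minus that of the others was -0.21. The other probe sets of Psma5 and Ddx3x gave 0.043 and 0.064 in Balbc/J.

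Per2, a core repressor of the clock, was the member of this group with the best known role. It lay at 9.13 to 9.52 in control mice (median 9.31) and 8.99 to 9.41 in CR mice (median 9.18), so the groups overlapped, with a difference of -0.11 ± 0.0813 log2 units (adjusted p = 0.9). Over the other 6 strains Per2 rose by 0.26 ± 0.0332 (adjusted p = 2.21e-08). By strain the difference was 0.50 in C57BL6/J, 0.37 in B6C3F1/J, 0.32 in 129S1/SvImJ, 0.26 in DBA/2J, 0.20 in C3H/HeJ and -0.065 in CBA/J, so Balbc/J was not alone below 0. Balbc/J minus the other strains was -0.38 ± 0.0878 (adjusted p = 0.182). Nr1d1, which encodes REV-ERB alpha, fell by 0.30 over the other 6 strains (adjusted p = 1.19e-11) and differed by -0.09 ± 0.0754 in Balbc/J, from 10.70 to 11.14 in control to 10.68 to 11.02 in CR mice (difference between strains 0.20, adjusted p = 0.88). Arntl differed by 0.07 in Balbc/J and fell by 0.11 over the others (difference 0.18, adjusted p = 0.736), and its Balbc/J difference was 0.01 without the 3 control arrays high in Scarna13.

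Among the 10 circadian repressors listed, 9 were negative in Balbc/J, Cry1 at 0.01 being the exception, with a median of -0.083 against 0.038 in the other strains. Only Bhlhe41, which encodes the repressor DEC2, had an unadjusted p under 0.05 (-0.18, adjusted p = 0.702). Ciart differed by -0.19, Per1 by -0.12, Cry2 by -0.07 and Per3 by -0.02, none of them at an unadjusted p under 0.05. Cry1 and Per3 turned sign in some alternatives. The 5 activators measured had a median of 0.066 against -0.024 in the other strains. Control replicates 2, 3 and 4 weighed on these values: without them 4 of the 10 repressors were positive, the median was -0.054, 0 had an unadjusted p under 0.05, and Per2 differed by -0.06, Ciart by -0.09, Per1 by -0.05 and Nr1d1 by -0.06.

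**Figure D3:**
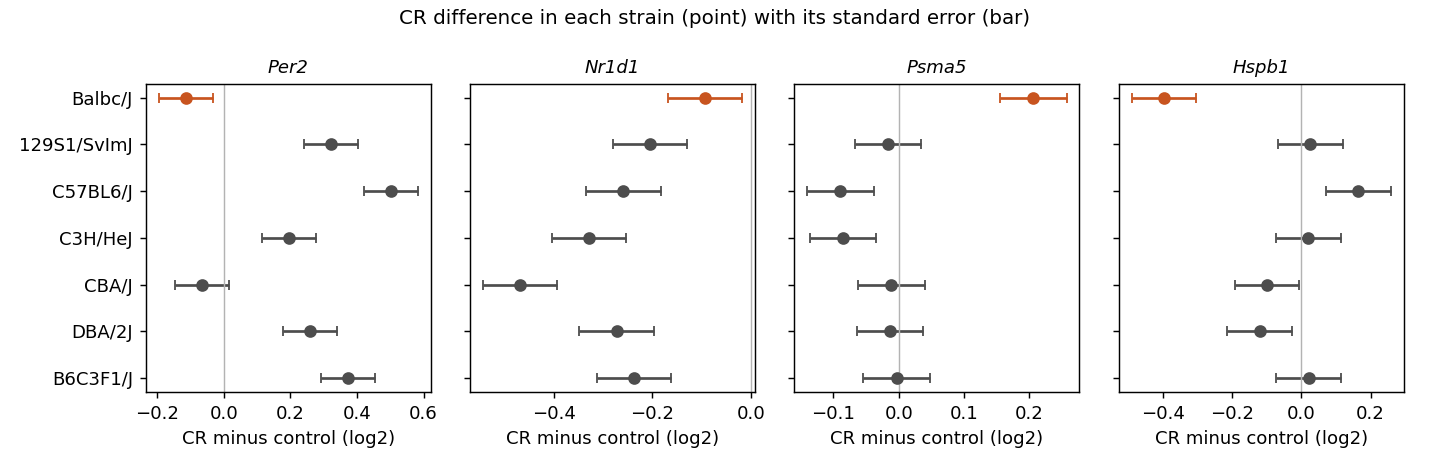
Difference in log2 RMA signal between CR and control mice (x axis) in each of the 7 strains (y axis) for Per2, Nr1d1, Psma5 and Hspb1, with points for the fitted difference and bars for its SE (8 mice per diet and strain). Balbc/J is at -0.11 for Per2, at -0.09 for Nr1d1, at 0.21 for Psma5 (0.043 with its other probe set, not drawn) and at -0.40 for Hspb1.

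The genes that respond to CR elsewhere were then read in Balbc/J, whose arrays entered their choice through the shared estimate of spread but not through the differences tested. Over the other 6 strains limma called 337 genes (1.69%), 167 higher and 170 lower. In Balbc/J 260 of the 337 had the same sign (77.2%, against 56.7% of all genes). Of the higher genes 119 kept the sign in Balbc/J (71.3%), and of the lower genes 141 (82.9%). The differences were mostly smaller, with a median of 0.0362 in Balbc/J against 0.103 for the higher genes and -0.0441 against -0.0822 for the lower genes, and the genes had been chosen for their differences in those other strains. At an unadjusted p under 0.05, 45 genes had the same sign (13.4%, against 4.65% of all genes) and 2 the opposite sign. When each strain in turn was set against genes called in the other 6, the share of the same sign ran from 64.3% in C3H/HeJ to 85% in 129S1/SvImJ. Across all 19938 genes, which are not independent, the differences in Balbc/J and in the other strains had a Pearson correlation of 0.20.

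Rpe65, the isomerohydrolase of the visual cycle, had the largest rise elsewhere among these genes (0.32) and differed by 0.42 ± 0.156 in Balbc/J (adjusted p = 0.538). Its levels were low and spread, from 6.25 to 7.16 in control (median 6.64) and from 6.12 to 7.60 in CR mice (median 7.08). Mtss2, which encodes a membrane-bending protein, differed by -0.20 in Balbc/J (adjusted p = 0.604) and by -0.18 elsewhere, with 7 of 8 CR arrays (10.01 to 10.27) below every control array (10.18 to 10.39). Gdf11, a ligand of the TGF-beta family, differed by -0.14 (adjusted p = 0.715) against -0.15. The interferon-induced gene Ifit3 lay near 0, at 0.00 ± 0.103 in Balbc/J against 0.27 (adjusted p of the difference between strains = 0.902), as did Txnip, the thioredoxin inhibitor that responds to glucose, at 0.04 against 0.22 (adjusted p = 0.999). Values in between were 0.08 against 0.23 for Map3k19, 0.09 against 0.21 for the melanocortin receptor gene Mc4r, 0.18 against 0.29 for Etnppl and 0.14 against 0.24 for Ifit3b. Among genes lower elsewhere, the receptor subunit genes Grin2c and Gabrd were at -0.02 and -0.01 in Balbc/J against -0.20 and -0.18, Tuba8 at 0.00 against -0.17 (these 3, Ifit3 and Txnip turned sign in some alternatives), Mcam at -0.10 against -0.16 and Lurap1 at -0.11 against -0.15. Without the 3 control arrays high in Scarna13, Mc4r was at 0.02, Mcam and Lurap1 at -0.06 each, Gdf11 at -0.09 and Mtss2 at -0.16. The falls of Grin2c, Mtss2, Mcam and Lurap1 elsewhere were largest in C57BL6/J and B6C3F1/J. Grin2c was at -0.442 and -0.322 there and at -0.164 to -0.059 in the other reference strains. The control groups of C57BL6/J and B6C3F1/J each held an array rich in cerebellar genes, whose part in these falls was not tested. This order did not hold for Gabrd, Gdf11 and Tuba8.

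**Figure D4:**
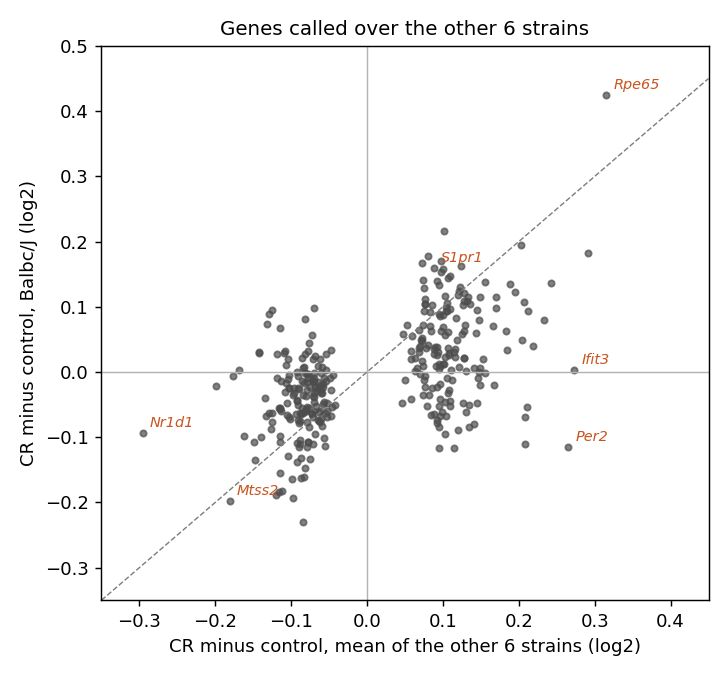
CR minus control difference in Balbc/J (y axis, log2 units) against the mean difference in the other 6 strains (x axis, log2 units) for the 337 genes called there, 1 point per gene, with a dashed line of equality. Points lie in the same-sign quadrants for 260 genes and mostly nearer to 0 on the Balbc/J axis (268 genes).

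The remaining lists were read by their counts and medians, since no list had a called gene in Balbc/J. Of all genes 46.9% were positive. Genes of a list were measured on the same arrays, so their signs are not independent. The RNA-binding splicing factors, which shape which exons are kept, were positive for 18 of 22 genes, with a median of 0.059, and 5 had an unadjusted p under 0.05, all higher (22.7% of the list, against 6.65% of all genes in either direction). They included Srsf5 (0.17, adjusted p = 0.47), Srsf3 (0.16), the cold-inducible RNA-binding protein gene Cirbp (0.14) and Luc7l2 (0.11). Without the 3 control arrays high in Scarna13, 19 of 22 were positive and the median was 0.041, while Cirbp differed by 0.05. Then 3 had an unadjusted p under 0.05 (13.6%, against 3.92% of all genes). The proteasome, the protease that degrades ubiquitin-tagged proteins, was positive for 24 of 31 genes with a median of 0.044. Psma5 (0.043 with its other probe set), Psmd6 (0.17, adjusted p = 0.334) and Psmd7 (0.18, adjusted p = 0.474) had an unadjusted p under 0.05. They were 9.68% of the list, against 6.65% of all genes. Without the 3 arrays 20 of 31 were positive, the median was 0.016, and Psmd6 and Psmd7 differed by 0.08 and 0.11, neither at an unadjusted p under 0.05. The list then had 2 genes under that threshold (6.45%, against 3.92% of all genes).

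Subunits of oxidative phosphorylation and of the cytosolic ribosome were spread to both sides. Of 49 respiratory genes, 11 were higher and 6 lower at an unadjusted p under 0.05 (34.7%, against 6.65% of all genes), for example Sdha, the flavoprotein of complex II (0.09), and the ATP synthase subunit gene Atp5a1 (0.11) against Ndufb8 of complex I (-0.18). Of 38 ribosomal protein genes 7 were higher and 5 lower (31.6%, beside the same 6.65%), with Rps7 at 0.18 and Rpl38 at -0.18. Medians were 0.009 and -0.011. The counts on the higher side turned on the control arrays high in Scarna13. Without them 0 respiratory genes were higher and 4 lower, and 0 ribosomal genes were higher and 9 lower, with medians of -0.009 and -0.045, where 3.92% of all genes had an unadjusted p under 0.05. Rps7 then differed by 0.03, Rpl38 by -0.08, Sdha by 0.05 and Atp5a1 by 0.04. The shares over all genes are not matched for signal. Respiratory, ribosomal and splicing lists had median control signals of 10.16, 10.07 and 9.82, against 7.55 over all genes. Genes above the median signal, fitted alone, gave 276 at an unadjusted p under 0.01. All 19938 genes, a set split by that median, gave 346 (1.74%), so a low p was more frequent among bright genes.

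Chaperones of the endoplasmic reticulum had a median of 0.033 over 22 genes, 16 of them positive, against 0.061 in the other strains, where 10 were called higher. Hspa5, which encodes BiP, differed by 0.13 in Balbc/J (adjusted p = 0.848) and by 0.19 elsewhere. Only Herpud1 (-0.17, adjusted p = 0.496) and Xbp1 (-0.12, adjusted p = 0.744), which act in the stress response of this compartment, had an unadjusted p under 0.05, both lower. They were 9.09% of the list, against 6.65% of all genes. Without the 3 control arrays high in Scarna13 the list's median was -0.021, 10 of 22 were positive, and Hspa5 differed by 0.04. Then 1 of 22 was lower at an unadjusted p under 0.05 (4.55%, against 3.92% of all genes), and Xbp1 (-0.11) was no longer under that threshold. Sterol synthesis genes were positive in 15 of 20 cases (median 0.034) and in 17 without those arrays (median 0.049), with 0 at an unadjusted p under 0.05 in either. Activity-induced early genes were negative in 16 of 20 cases, with Fos at -0.27 (adjusted p = 0.841) and Nr4a3 at -0.21, but their median went from -0.084 to -0.002 without those arrays, with Fos at -0.07 and Nr4a3 at -0.10. The glucocorticoid-induced gene Fkbp5, which encodes a co-chaperone of the glucocorticoid receptor, differed by 0.14 (adjusted p = 0.916), close to its 0.16 elsewhere, and by 0.02 without them.

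A further list holds cortex genes that the study selected from these arrays by their p within several strains, Balbc/J among those tested. Neither its direction nor its share at a low p is therefore independent evidence. Of 28 genes 26 were measured, and 7 were higher and 4 lower in Balbc/J at an unadjusted p under 0.05 (42.3%, against 6.65% of all genes). Without the 3 control arrays high in Scarna13, 6 were higher and 2 lower (30.8%, against 3.92%). They included Cldn5, the tight junction claudin of brain endothelium (9.09 to 9.62 in control and 9.37 to 9.73 in CR mice, difference 0.27, adjusted p = 0.18), S1pr1, a receptor for sphingosine phosphate (0.16, adjusted p = 0.253), Nt5c2 and Bcl2 (0.12 each) and Fgfrl1 (-0.15). Fgfrl1 differed by -0.11 and Cldn5 by 0.20 without the 3 control arrays high in Scarna13. Over the other strains the Cldn5 mean of -0.01 joined 0.178 in C3H/HeJ, 0.133 in CBA/J and 0.086 in B6C3F1/J with -0.067 in DBA/2J, -0.121 in C57BL6/J and -0.254 in 129S1/SvImJ. Among other endothelial markers Pecam1 was at -0.05, Cdh5 at -0.07 and Tek at 0.08 (0.17 without those 3 arrays), and 7 of 13 were positive.

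**Figure D5:**
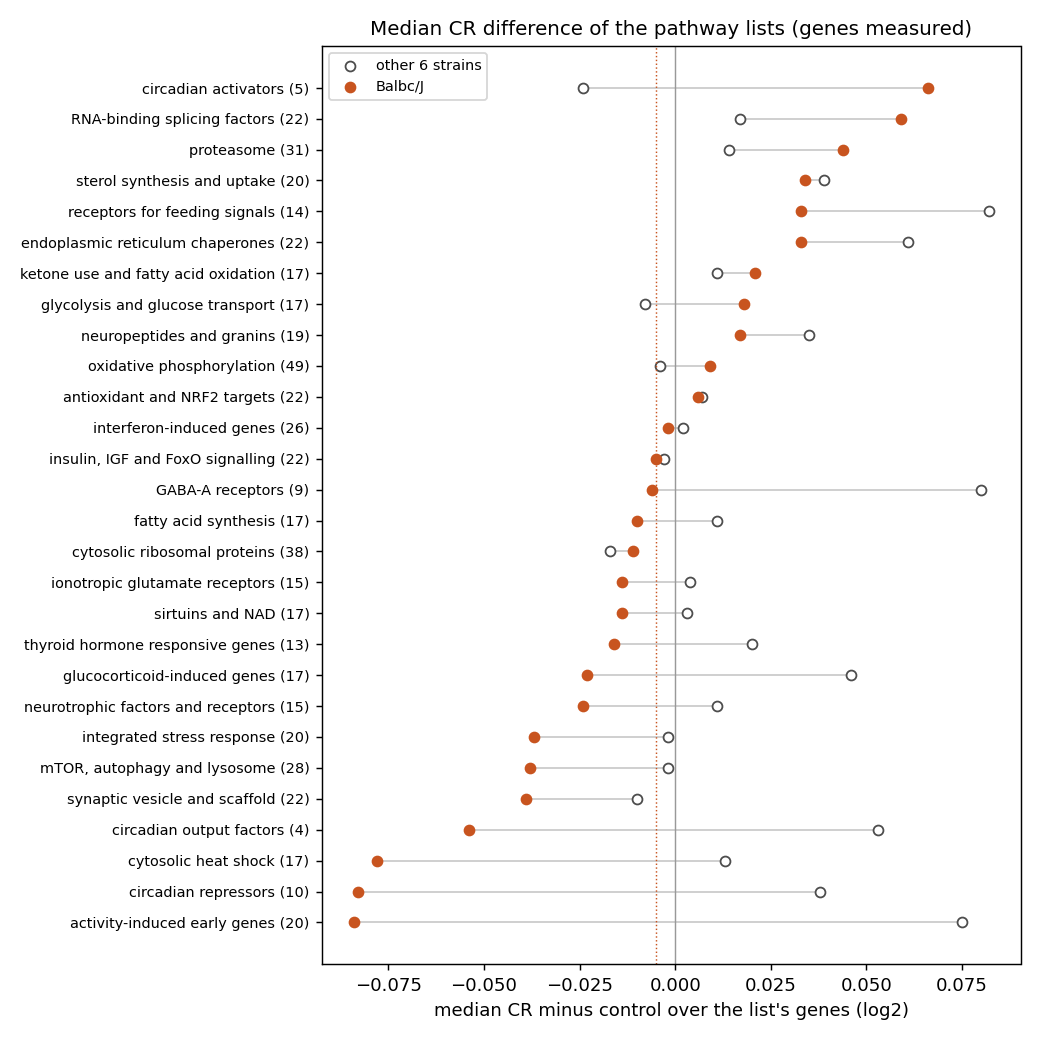
Median CR minus control difference (x axis, log2 units) over the measured genes of each of 28 pathway lists (y axis), filled for Balbc/J and open for the other 6 strains, with a dotted line at the Balbc/J median of all genes (-0.005). Cytosolic heat shock (-0.078), circadian repressors (-0.083) and early genes (-0.084) lie lowest in Balbc/J.

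Markers of other cell types and regions that a cortex sample can hold were measured alongside. In bulk tissue, fewer cells of a type and less RNA per cell cannot be told apart. Striatal genes were positive for 10 of 10 markers with a median of 0.224 and 0 at an unadjusted p under 0.05. Without the 3 control arrays high in Scarna13, 6 of 10 were positive and the median was 0.024, and it ran from 0.073 (without control replicate 2) to 0.403 (without CR replicate 7) when 1 array was left out. Their mean per array spread over 8.32 to 10.31 in control mice (median 9.41) and 8.32 to 10.44 in CR mice (median 10.09). Blood genes were lower for 6 of 6 measured of 11 listed, with array means of 6.69 to 6.92 in control and 6.56 to 6.79 in CR mice. Alas2, the haem synthesis gene of red cells, differed by -0.29 ± 0.0740 (adjusted p = 0.167) and Fech by -0.13 (-0.08 without the 3 control arrays high in Scarna13). Gfap, the filament gene of astrocytes, lay at 8.89 to 9.53 in control (median 9.31) and 8.82 to 9.07 in CR mice (median 8.98), a difference of -0.28 ± 0.0935 (adjusted p = 0.403), while 6 of 14 astrocyte genes were positive. Trem2, a receptor gene of microglia, differed by -0.16 (adjusted p = 0.222) with 6 of 13 microglial genes positive. Oligodendrocyte genes had a median of -0.089, with 9 of 12 negative, and the median was -0.033 without the 3 control arrays high in Scarna13. The part of these cell types and regions in the differences above was not tested, beyond a fit with the striatal level as a covariate, in which C2cd2l (-0.47, adjusted p = 0.0195) and 1500009C09Rik (-0.25, adjusted p = 0.0337) were called.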

How the data were processed

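Cortical RNA of 112 mice (14 groups of 8) was extracted with Trizol, labelled as biotin cRNA and read on Mouse Gene 1.0 ST arrays (Affymetrix). Deposited log2 values came from the authors' run of Expression Console, at gene level with RMA-Sketch. No version is given in the sources used here. RMA normalizes probes by quantiles before it summarises them, so a shift common to all genes would be largely hidden. Of 35556 probe sets, 21789 had exactly 1 symbol on the platform, and the brightest probe set per gene left 19938 genes. The 13767 others were fitted apart. There was no filter on low signal.

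A mean per strain and diet was fitted over all 112 arrays by lmFit and eBayes of limma 3.58.1 (R 4.3.3, two-sided tests, with 98 residual degrees of freedom plus 4.62 from the prior). The contrasts were CR minus control in Balbc/J, the mean of that contrast over the other 6 strains, and their difference. Genes count as called where the p adjusted by Benjamini-Hochberg over the 19938 was under 0.05. The replicates are separate mice. Named genes were the 12 each way of smallest p above the median signal, the 8 of smallest p for the difference, 8 each way from the genes called in other strains and up to 4 per list, while Hspa8, Hsph1, Hsp90aa1, Per1, Per3, Cry1, Bcl2, Atp5a1 and the genes whose groups do not overlap were added after their values were seen. The 44 gene lists (28 pathways, 15 cell types or regions and 1 from the study), the genes and the motifs were chosen with earlier results of these data known. The fit was tested on simulated data.

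Alternatives were quantile normalization, median centring, a filter on dim genes, other probe set choices, robust and weighted fits, an equal-variance t-test within Balbc/J, a test against a 1.1-fold change, the 16 arrays alone, a replicate block, quality, striatum and Scarna13 covariates, and leaving out arrays. That t-test took log2 values and probe sets chosen over all arrays. The study's own t-test is described as on the raw scale, with probe sets chosen within each strain.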

Additional observations from a re-analysis of the deposited data

Results flagged for a closer look

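Within the 8 arrays of a Balbc/J group, 10 of 214 groups of values examined (4.67%) held a single array far from the nearest of the others by Dixon's test, and chance alone flags about 1 in 20. In CR mice, replicate 7 was high for Alg3 (9.59, against 9.19 to 9.36 on the other 7 arrays) and for the clock repressor gene Ciart (9.94, against 9.37 to 9.59). CR replicate 6 was low for Ifit3b (4.71, against 5.17 to 5.44) and for the endothelial receptor gene Tek (7.46, against 7.70 to 7.89), and CR replicate 8 for Cry1 (7.87, against 7.92 to 7.97). The mean of the blood markers was low in CR replicate 4 (6.56, against 6.69 to 6.79). In control mice, replicate 2 was low for the neuropeptide gene Crh (5.57, against 5.87 to 6.10), replicate 8 was low for Lurap1 (7.88, against 8.19 to 8.36), and replicate 3 was high for S100a1 (10.37, against 10.12 to 10.21). Choroid plexus markers were high in control replicate 7, at a mean of 8.02 against 6.60 to 6.98 on the other control arrays.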

How the results depend on the processing

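The absence of called genes in Balbc/J depended on single arrays and on weighting. Limma called 24 genes (10 higher) with array weights, 6 (5 higher) with quantile normalization, 1 (C2cd2l) without the C57BL6/J and B6C3F1/J control arrays rich in cerebellar genes, 2 with the striatal level as a covariate and 1 without the 3 control arrays high in Scarna13. Leaving out 1 Balbc/J array at a time gave 0 to 20, with 20 (16 higher) without control replicate 8, 2 without control replicate 3 and 1 (Hspb1) without CR replicate 7. The equal-variance t-test on log2 values, the robust fit, the 16 arrays alone, centred medians, the filter on dim genes and other probe set choices called 0. The count at an unadjusted p under 0.01 was 726 with array weights, 155 without the 3 Scarna13-high arrays and 232 to 588 without 1 array, 588 being without control replicate 8. Against the other strains, array weights called 11 (4 higher, among the 11 Hspb1, Hspa1a, Dnajb1, Psma5, Ddx3x and Per2) and leaving out 1 array 0 to 2 (Hspb1 and Hspa1a without control replicate 3, Tmem203 without control replicate 5). Over the other strains 627 genes were called without the 2 cerebellum-rich arrays and 866 with array weights. The cause was not tested. The share of their genes with the same sign in Balbc/J was 68.8% to 79.3% without 1 array. List medians also moved without 1 array, over 0.029 to 0.087 for splicing factors (control replicates 1 and 8 left out), 0.024 to 0.056 for the proteasome (control replicate 2 and CR replicate 6), -0.113 to -0.06 for circadian repressors (control replicates 1 and 3), 0.006 to 0.065 for endoplasmic reticulum chaperones (control replicates 1 and 8), 0.015 to 0.056 for sterol synthesis (CR replicate 3 and control replicate 3) and -0.131 to -0.03 for oligodendrocytes (CR replicates 2 and 7).

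Named genes kept their sign except for those near 0. Reversed values were -0.014 (array weights) and -0.005 (Scarna13 covariate) for Cry1, 0.007 (array weights), 0.009 (quality covariate), 0 (centred medians), 0.003 (without the 3 arrays of widest spread) and 0.006 (without the 3 Scarna13-high arrays) for Gabrd, 0.015 (quality covariate) for Grin2c, 0.002 (quantile normalization) for Hspa8 and -0.003 (striatal covariate) for Ifit3. Per3 was at 0.01, 0.063 and 0.012 without the widest arrays, without the Scarna13-high arrays and with the Scarna13 covariate. Under these settings Tuba8 was at -0.006, -0.01 and -0.078, and it was at -0.007 and -0.004 with array weights and quantile normalization, while Txnip was at -0.056 with array weights and -0.053 without the Scarna13-high arrays. Without 1 array the ranges were -0.028 to 0.03 for Cry1, -0.034 to 0.035 for Gabrd, -0.046 to 0.009 for Grin2c, -0.024 to 0.012 for Hspa8, -0.071 to 0.046 for Hsph1, -0.06 to 0.083 for Ifit3, -0.043 to 0.013 for Per3, -0.031 to 0.035 for Tuba8 and -0.016 to 0.096 for Txnip.

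The replicate number does not pair the samples: deviations of same-numbered Balbc/J arrays correlated at -0.48 to 0.09, with 0 of 8 over 0.1. With the replicate number as a block 0 genes were called in Balbc/J (408 at an unadjusted p under 0.01), 0 against the other strains and 403 over the other strains.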

Other observations

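Among the 13767 probe sets with several or no symbols, which took no part in the comparisons above, limma called 0 in Balbc/J (lowest adjusted p = 0.055), with 1054 (7.66%) at an unadjusted p under 0.05. At an unadjusted p under 0.01 the other strains, each with 8 mice per diet in the same limma fit, had 99 genes in C3H/HeJ, 286 in DBA/2J, 330 in B6C3F1/J, 363 in 129S1/SvImJ, 491 in CBA/J and 630 in C57BL6/J, beside the 346 of Balbc/J. In Balbc/J the lysosomal membrane gene Lamp1 (-0.11, adjusted p = 0.439) and the deacetylase gene Sirt2 (-0.14, adjusted p = 0.253) were lower without passing over all genes. So was the glycolytic gene Pgam1 (-0.16, adjusted p = 0.254). Pgam1 was at -0.063 with its other probe set and at -0.11 without the 3 control arrays high in Scarna13. Acadm, a dehydrogenase of fatty acid oxidation, was at 0.11 (adjusted p = 0.677) and at 0.07 without those arrays.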
